A study of Mus musculus with 12 samples.

Results

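Many Sprouty, Spred, dual-specificity phosphatase and Etv genes are known as genes that the ERK pathway switches on, and several of their products act back on it. Here 10 genes of these families are described in mouse embryonic stem cells given L-proline: Spry1, Spry2, Spry4, Spred1, Spred2, Dusp4, Dusp6, Dusp3, Etv4 and Etv5. They are called feedback genes as a group name, which does not say that ERK induces each of them. Their 30 probe sets, all those whose single gene symbol was one of these names, were taken from 45101 on the array, and the 10 genes are 10 of 18193 that could be named. A probe set is a group of short probes read together as 1 signal, and every member gene had at least 1. The cells were TBV2, a wild-type embryonic stem cell line from strain 129/SvP. Control cultures were grown without feeder cells on gelatin, and proline cultures the same way with 500 µM L-proline for 5 days. Samples of both groups are listed at day 5. Both were kept in medium that held leukemia inhibitory factor (LIF), the cytokine that keeps mouse stem cells pluripotent, and no added non-essential amino acids. Each group has 2 biological replicates, numbered 1 and 2 in the sample titles, with 3 arrays each, so that 12 arrays were measured.

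Fibroblast growth factors (FGFs) bind receptors at the cell surface and pass a signal through the small GTPase Ras to the kinases Raf, MEK and ERK. In mouse embryonic stem cells this route, driven mainly by the cells' own FGF4, is known for moving cells from the naive state toward the primed state that precedes differentiation. Active ERK raises transcripts of several of its own inhibitors. Sprouty and Spred proteins act between receptor and Raf, and dual-specificity phosphatases such as Dusp6 remove phosphates from ERK itself. Etv4 and Etv5 are ETS transcription factors of the PEA3 group and serve as outputs of FGF signalling. Transcript levels alone do not measure ERK activity, and protein and phosphorylation were not measured here.

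Signals are log2 values, so that a difference of 1 is a 2-fold change. The 3 arrays of a biological replicate were averaged, and where a gene had several probe sets the one with the strongest average signal stood for it. Arrays of 1 biological replicate correlated at r = 0.996 to 0.998 over all probe sets, those of the other replicate of the group at 0.985 to 0.989, and those of the other group at 0.962 to 0.981. The labels do not say whether the biological replicates were separate cultures, so p-values measure only the spread between these samples, which may be technical. The stem cell markers Pou5f1, Sox2, Nanog, Sall4 and Lin28a read between 11.2 and 13.6 in every biological replicate. Of these 5, 0 passed an adjusted p of 0.05 in limma and 3 had an unadjusted p under 0.05: Sox2 measured -0.55 ± 0.11 (adjusted p = 0.0776), Nanog -0.54 ± 0.19 (adjusted p = 0.201) and Lin28a 0.67 ± 0.11 (adjusted p = 0.0530), as proline minus control. Pou5f1 and Sall4 measured -0.29 and -0.25, so that 4 of the 5 lay below 0. The mean level of 5 fibroblast markers was 5.80 to 6.08 in controls and 5.65 to 6.28 after proline, that of 5 trophoblast markers 5.09 to 5.43 and 5.45 to 5.96, and that of 6 extraembryonic endoderm markers 5.19 to 5.31 and 5.52 to 5.72. In these 3 lists 0 genes passed the threshold in limma, and 0, 1 and 1 had an unadjusted p under 0.05. These were the trophoblast marker Gata3, at 0.86 ± 0.31 (adjusted p = 0.213), and the endoderm marker Dab2, at 1.68 ± 0.28 (adjusted p = 0.0545). Above 0 lay 1 of the 5 fibroblast, all 5 trophoblast and 5 of the 6 extraembryonic endoderm markers, with medians of -0.07, 0.62 and 0.17. On an array no signal reaches 0, and 2 genes of each list, Gata3 among them, were below the 40th percentile of all signals (5.36) in every replicate. In bulk RNA, fewer cells of a type and less RNA per cell cannot be told apart. The part of any of these differences in the results was not tested.

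The feedback genes split after proline. Spry4, a Sprouty inhibitor, fell 2.57-fold, while the ERK phosphatase gene Dusp6 rose 2.08-fold and the phosphatase gene Dusp3 rose 1.81-fold. The other 7 did not pass an adjusted p of 0.05 in limma, although Spry1 and Dusp4 measured above 2-fold higher and Etv4 above 2-fold lower in proline. Of the 10 genes, 2 rose and 1 fell, where 3.03% of all 18193 genes rose and 1.34% fell, 4.36% together. An unadjusted p under 0.05 was reached by 8 of the 10 and by 22.1% of all genes. The 6 proline arrays lay entirely to one side of the 6 control arrays for 6 of the 10, against 24.6% of all genes. The median size of the difference, without its sign, was 0.96 for the 10 genes and 0.18 for all genes, and the signed medians were -0.24 and -0.03. With any 1 of the 4 biological replicates left out, 0 of the 10 and 0 of all genes passed in limma, with 6 to 7 of the 10 at an unadjusted p under 0.05. With every probe set tested by itself, 0 of the 30 passed, against 0.0998% of all probe sets, and 12 had an unadjusted p under 0.05, against 17.6%. The arrays of the groups did not overlap for 11 of the 30, against 19.1% of all probe sets. The members were chosen with earlier results of these data known, so these contrasts with all genes and all probe sets only describe them.

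**Figure D1:**
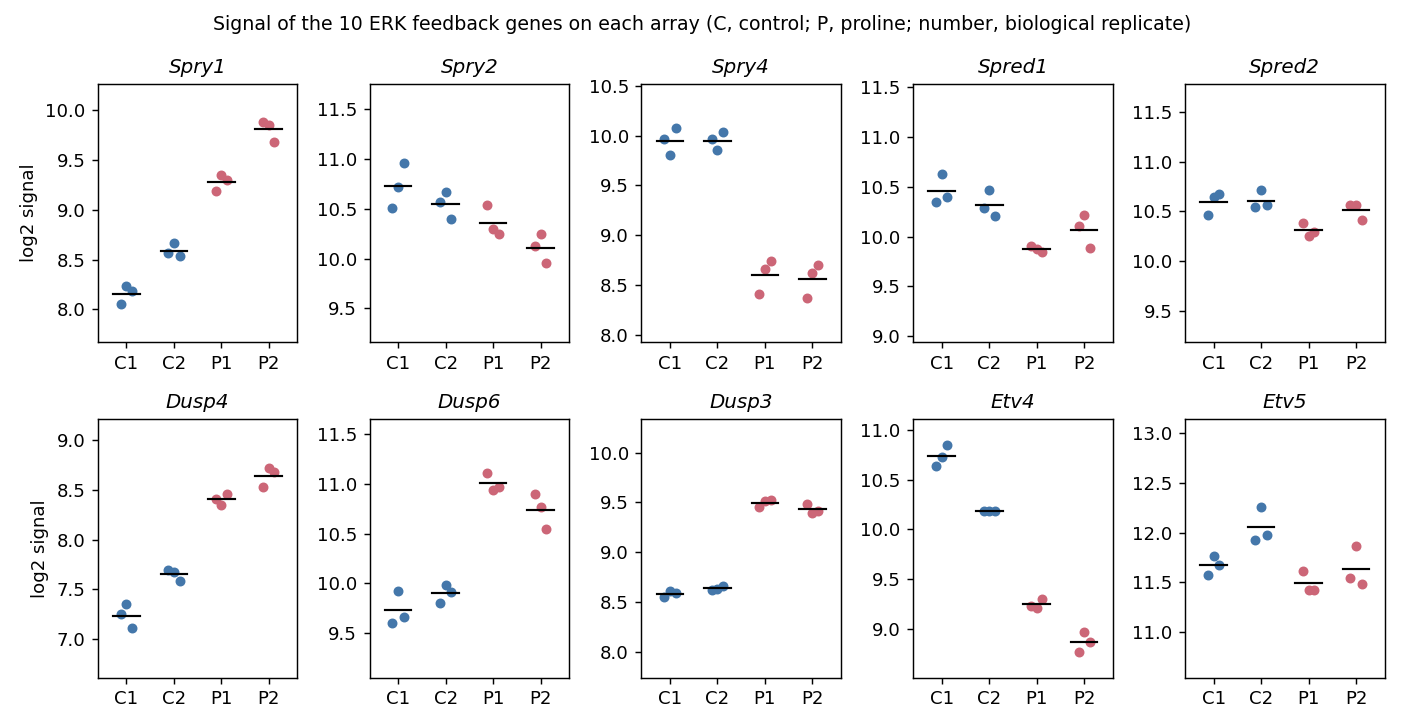
Log2 signal of each of the 10 feedback genes on the 12 arrays, by group and biological replicate (C, control; P, proline); points are arrays, black lines are means of 3 arrays, and every panel spans the same number of log2 units. Spry4 sits near 9.95 in both control replicates and at 8.60 and 8.56 in the proline replicates, while the Dusp6 and Dusp3 points lie higher in proline without overlap.

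The 3 Sprouty genes did not move as one. Sprouty proteins are membrane-linked inhibitors that block the signal from growth factor receptors before it reaches Raf. Spry4 read 9.95 and 9.95 in control replicates 1 and 2 and 8.60 and 8.56 in proline replicates 1 and 2. Replicate 2 minus replicate 1 was 0.003 in control and -0.04 in proline, far less than the distance between the groups. The 3 arrays of control replicate 1 ran from 9.80 to 10.07 and those of proline replicate 1 from 8.41 to 8.74. Both spreads were wider than these steps. The log2 difference of Spry4 was -1.36 ± 0.11 (moderated SE, 2 biological replicates per group; adjusted p = 0.0246 in limma). The adjusted p was 0.119 without control replicate 1, 0.0633 without control replicate 2, 0.0516 without proline replicate 1 and 0.0801 without proline replicate 2, with a difference of -1.34 to -1.39 in all 4.

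Spry4 has 4 probe sets, and all 4 measured lower in proline. Probe set 1445669_at gave a difference of -1.50 ± 0.14, 1422021_at -0.74 ± 0.23 and 1422020_at, the dimmest at 5.81 to 6.27, -0.27 ± 0.14. The first of these came from 7.72 and 7.87 in control to 6.42 and 6.18 in proline, close to the difference of the probe set used for the gene. The call on Spry4 was lost with the median over its probe sets, at -1.12 and an adjusted p of 0.0625, and with every probe set tested by itself, at an adjusted p of 0.0520.

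Spry1 differed from Spry4 in direction. It read 8.15 and 8.59 in control and 9.28 and 9.81 in proline, and no proline array fell below any control array. The difference of 1.17 ± 0.25 was the most positive of the 10 genes, but did not pass (adjusted p = 0.0822). Within each group replicate 2 lay above replicate 1, by 0.43 in control and 0.53 in proline, and the 4 pairs of a proline with a control replicate differed by 0.69 to 1.65. Only 1 probe set of Spry1 was measured.

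Spry2 read 10.73 and 10.54 in control and 10.36 and 10.11 in proline. Its arrays overlapped between the groups, and the difference of -0.40 ± 0.15 did not pass (adjusted p = 0.220, 95% interval -0.80 to -0.01). Its other probe set, at 7.06 to 7.28, measured -0.11 ± 0.12. Spry1 lay above and Spry2 below its controls in all 4 pairs of replicates, and neither passed.

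Neither Spred gene passed the test. Spred proteins also restrain Ras, and are known to do so by bringing the Ras inactivator neurofibromin to the membrane. Spred1 read 10.46 and 10.32 in control and 9.87 and 10.07 in proline, a difference of -0.42 ± 0.13 (adjusted p = 0.172, 95% interval -0.77 to -0.06). Spred2 read 10.59 and 10.61 in control and 10.31 and 10.51 in proline, a difference of -0.18 ± 0.13 (adjusted p = 0.499, 95% interval -0.52 to 0.15). For both genes the arrays of the groups overlapped. These intervals leave room for a fall of Spred1 of up to 0.77 and of Spred2 of up to 0.52 on the log2 scale, and hold no 2-fold change of either.

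All 8 Spred1 and all 5 Spred2 probe sets measured below 0, from -0.42 to -0.02 and from -0.36 to -0.01. The 2 brightest Spred1 probe sets measured -0.42 and -0.40 and the other 6 from -0.17 to -0.02. Spred1 probe sets 1443652_x_at and 1445228_at, which lay under the 40th percentile in all 4 replicates, measured -0.09 ± 0.13 and -0.02 ± 0.14. At such levels signal and background are not separated by these values.

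**Figure D2:**
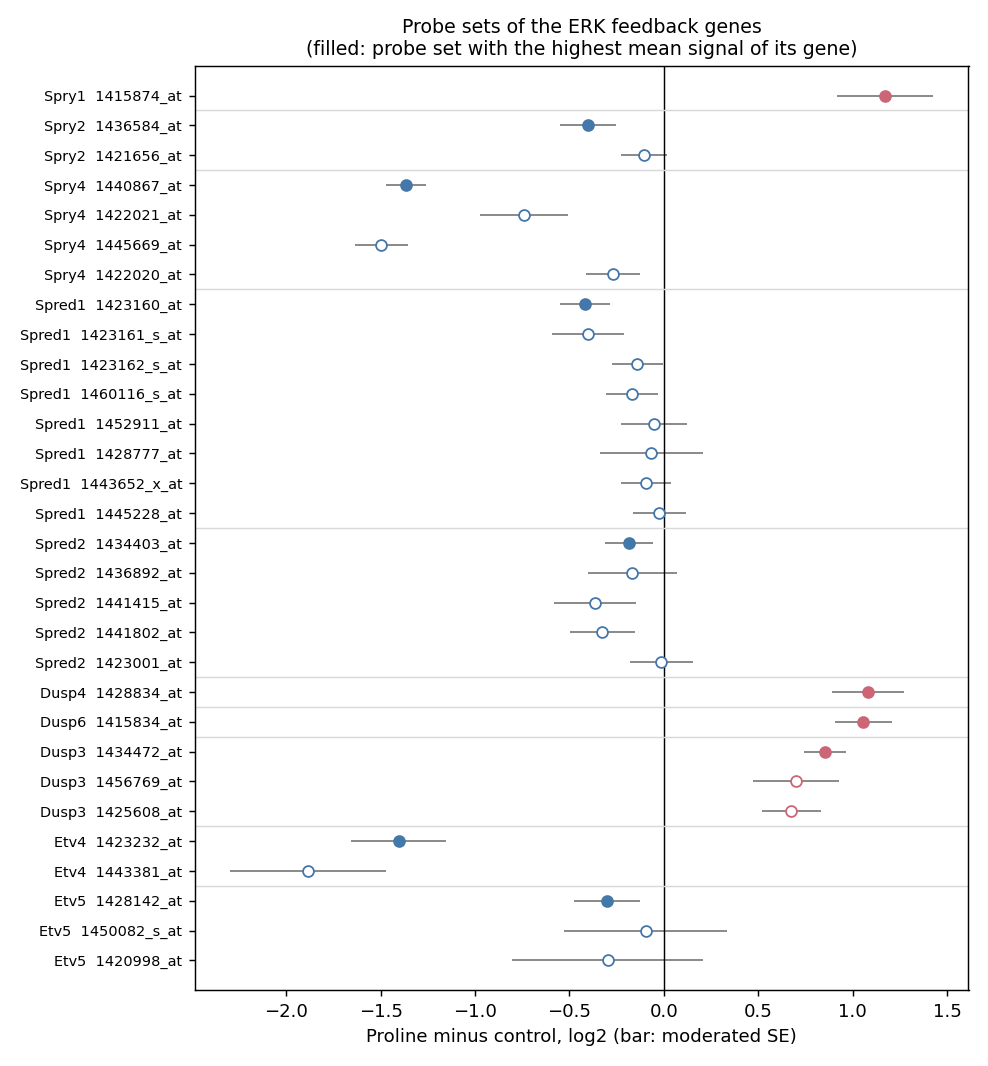
Proline minus control difference (log2) of each of the 30 probe sets of the feedback genes, with limma's moderated standard error as bars; filled points mark the probe set used for the gene. The 6 probe sets of Spry1, Dusp4, Dusp6 and Dusp3 lie above 0 and the other 24 lie below it, so that no gene had probe sets on both sides.

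The 3 phosphatase genes all measured higher in proline, and for each the proline and control arrays did not overlap. Dusp6 encodes a cytoplasmic phosphatase specific for ERK and is among the most used readouts of FGF signalling. It read 9.73 and 9.90 in control and 11.01 and 10.73 in proline. Replicate 2 lay 0.17 above replicate 1 in control and 0.27 below it in proline, and the smallest of the 4 pairs was 0.84. Dusp6 rose by 1.06 ± 0.15 (adjusted p = 0.0417 in limma). Its adjusted p was 0.174 without control replicate 1, 0.0978 without control replicate 2, 0.0920 without proline replicate 1 and 0.0949 without proline replicate 2. With every probe set tested by itself it was 0.0726, and among genes tested on the median over their probe sets 0.0557.

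Dusp3, also called VHR, is a small atypical phosphatase that acts on ERK and JNK and lacks the kinase-binding domain of Dusp4 and Dusp6. It read 8.58 and 8.64 in control and 9.50 and 9.43 in proline. Replicate 2 minus replicate 1 was 0.06 in control and -0.07 in proline, small beside the distance between the groups. Dusp3 rose by 0.85 ± 0.11 (adjusted p = 0.0378 in limma), and its other probe sets measured 0.70 ± 0.23 and 0.68 ± 0.16. The adjusted p was 0.163 without control replicate 1, 0.101 without control replicate 2, 0.0982 without proline replicate 1, 0.119 without proline replicate 2, 0.192 with the median over probe sets, 0.0508 with an intensity trend and 0.0670 with every probe set tested by itself.

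Dusp4 encodes a nuclear, ERK-induced phosphatase. It read 7.24 and 7.65 in control and 8.41 and 8.64 in proline, a difference of 1.08 ± 0.19 that did not pass (adjusted p = 0.0583). As with Spry1, replicate 2 lay above replicate 1 in both groups, by 0.41 in control and 0.23 in proline. When genes under the 40th percentile of signal were left out of the test, the same difference had an adjusted p of 0.0459.

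The promoters of Dusp6 and Dusp3 are shown because these are the members that rose. That of Etv5 is shown at the listed start that holds the most matches of the motif below. Sequences are the 250 bases before the gene's start in RefSeq, build GRCm38.p6, at chr10:99262981-99263230 on the + strand for Dusp6, chr11:101984792-101985041 on the - strand for Dusp3 and chr16:22438369-22438618 on the - strand for Etv5. Capitals mark TGAATG on either strand, the letters that open both octamers TGAATGAA and TGAATGGA bound by Capicua, a repressor of Etv and Dusp6 genes that ERK is known to release.
Dusp6: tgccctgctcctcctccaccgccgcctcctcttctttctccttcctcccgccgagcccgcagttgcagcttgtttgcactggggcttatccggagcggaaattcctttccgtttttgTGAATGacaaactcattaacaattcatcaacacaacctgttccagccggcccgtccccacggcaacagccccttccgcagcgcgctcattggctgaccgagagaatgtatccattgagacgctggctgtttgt
Dusp3: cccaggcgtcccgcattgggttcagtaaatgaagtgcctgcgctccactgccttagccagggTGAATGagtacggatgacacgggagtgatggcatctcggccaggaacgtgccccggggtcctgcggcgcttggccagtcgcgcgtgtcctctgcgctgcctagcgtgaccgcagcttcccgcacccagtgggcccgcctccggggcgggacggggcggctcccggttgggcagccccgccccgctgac
Etv5: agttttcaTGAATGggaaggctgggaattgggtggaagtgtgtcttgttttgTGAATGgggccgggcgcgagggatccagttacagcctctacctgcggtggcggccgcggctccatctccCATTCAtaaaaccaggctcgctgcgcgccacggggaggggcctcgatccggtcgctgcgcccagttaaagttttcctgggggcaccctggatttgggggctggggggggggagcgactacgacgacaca

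Among the 7 members with a promoter in the table, TGAATG had 1 match in Dusp6, 128 to 133 bases before the start, and 1 in Dusp3, 183 to 188 bases before it. Etv5 held 3 matches, all in the printed promoter, of which 1 was on the reverse strand. The promoter at its other listed start held none. In all, 10.9% of 32851 promoters of this length held the letters. The full octamers TGAATGAA and TGAATGGA, found in 1.08% and 1.01% of promoters, were in none of the 8 member promoters. Nor were the ETS-type site CCGGAA (in 3952 of all promoters), the AP-1 site TGACTCA (in 1466) or the CArG box of serum response factor (in 482), all searched on both strands. The shorter ETS core GGAA stands in each printed promoter and was not counted, so these searches do not show that ETS cores are absent. TGAATG is contained in both octamers, so that these counts overlap. Dusp6 and Dusp3 rose and Etv5 did not pass, so the letters stood both in genes that passed and in one that did not. Spry4, Dusp4 and Etv4 were not matched in the table.

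Both Etv genes measured lower in proline, and neither passed. Etv4 read 10.74 and 10.19 in control and 9.25 and 8.87 in proline, and every proline array lay below every control array. Its difference of -1.41 ± 0.25 was the most negative of the 10 genes and did not pass (adjusted p = 0.0575). Replicate 2 lay below replicate 1 in both groups, by 0.55 in control and 0.38 in proline, and the 4 pairs ran from -1.87 to -0.94. The second probe set of Etv4, 1443381_at, measured -1.89 ± 0.41, and its proline replicate 2 of 4.71 was under the 40th percentile. The gene's own difference of -1.41, on probe set 1423232_at, had an adjusted p of 0.0419 without genes under the 40th percentile and 0.0427 with an intensity trend.

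Etv5 read 11.67 and 12.05 in control and 11.49 and 11.63 in proline, a difference of -0.30 ± 0.17 (adjusted p = 0.407, 95% interval -0.76 to 0.15). Its arrays overlapped between groups. The other 2 probe sets of Etv5 separated the replicate numbers more than the groups. Probe set 1450082_s_at read 10.26 and 11.21 in control and 10.24 and 11.03 in proline, and 1420998_at read 9.60 and 10.40 in control and 9.08 and 10.31 in proline. In both, replicate 2 was above replicate 1 by 0.79 to 1.23, while the proline minus control differences were -0.10 ± 0.43 and -0.30 ± 0.51. Etv4 and Etv5, both measured lower in proline, thus differed in the direction of their replicate differences, since Etv4 was lower in replicate 2.

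**Figure D3:**
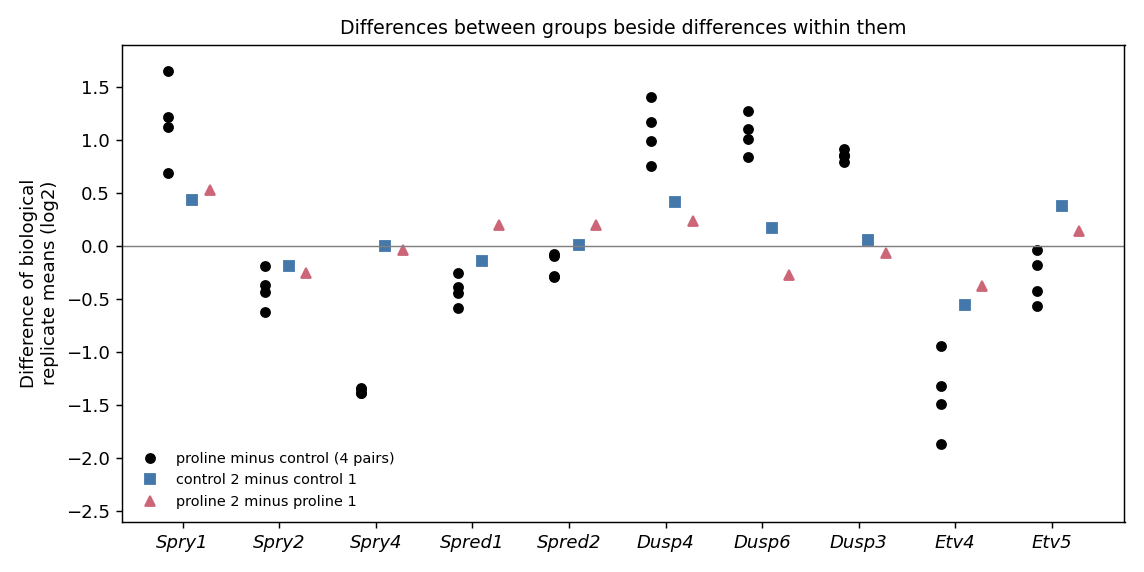
Differences of biological replicate means (log2) for the 10 feedback genes: each gene is shown by the probe set used for it, black points are the 4 proline minus control pairs, blue squares control 2 minus control 1, and red triangles proline 2 minus proline 1. The 4 pairs of Spry4 run from -1.39 to -1.34 and those of Dusp3 from 0.79 to 0.92, narrow beside Spry1, Dusp4 and Etv4, whose replicates differ within both groups.

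In every one of the 10 genes all 4 proline minus control pairs had the same sign, which held for 52.7% of all genes. The steps from replicate 1 to replicate 2 differed among the members. In Spry1, Dusp4, Etv4 and Spry2, replicate 2 differed from replicate 1 within both groups in the direction of the proline difference. In Spred2 and Etv5 it differed in the opposite direction within both groups, and in Spry4, Spred1, Dusp6 and Dusp3 the step had one sign in control and the other in proline. The steps of Spry4 and Dusp3 were between -0.07 and 0.06 on the probe sets used for them, but from -0.60 to 0.21 on the other 3 of Spry4 and from -0.48 to -0.16 on the other 2 of Dusp3.

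Measures of the arrays themselves also differed between replicates and between groups. The 18S ribosomal RNA signal was lower by 0.70 in control replicate 2 and by 1.39 in proline replicate 2 than in replicate 1, and differed by -1.35 between proline and control, about as much as Spry4 and Etv4. For beta-actin, 5' signal minus 3' signal, which reads RNA integrity and labelling, was higher by 0.40 and 0.42 in replicate 2 and higher by 0.25 in proline than in control. The same measure for Gapdh was higher by 0.29 and 0.26 in replicate 2 and by 0.06 in proline. Poly-A spike-ins, RNAs added before labelling, were lower by 0.39 and 0.52 in replicate 2 and differed by -0.44 between proline and control. Hybridization spike-ins were lower by 0.13 and 0.25 in replicate 2 and differed by -0.24. The part of these differences in the results was not tested.

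Etv4 and Dusp3 lie close together on chromosome 11, with 2 protein-coding genes, Meox1 and Sost, between them in RefSeq's gene order. The genes at the ends differed in opposite directions, Etv4 by -1.41 and Dusp3 by 0.85. Meox1, a homeobox gene, measured -0.54 ± 0.16 (adjusted p = 0.158) and Sost, a Wnt antagonist, -0.04 ± 0.11 (adjusted p = 0.901) at 4.01 to 4.10, under the 40th percentile. These 2 genes were looked up for their position after the members' values were seen.

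The closest array patterns to Spry1, the member with the most positive difference, were those of Ppp1r9a (r = 0.996), Dtx3l (r = 0.995) and Wwtr1 (r = 0.993), a partner of TEAD factors also called Taz. Those closest to Etv4, the member with the most negative difference, were Prune2 (r = 0.998), Gli2 (r = 0.997), an effector of Hedgehog signalling, and Slc47a1 (r = 0.995). These are Pearson correlations over the 12 arrays, which come from 4 biological replicates, and describe these arrays alone. Wwtr1 read 7.98, 8.35, 9.17 and 9.84 in control 1, control 2, proline 1 and proline 2, the same ascending steps as Spry1. Prune2 read 9.45, 8.92, 7.82 and 7.39, the descending steps of Etv4.

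Relatives of the members mostly measured higher in proline. Of 11 measured family members and partners, 2 rose, 0 fell and 9 did not pass, where 3.03% of all genes rose and 1.34% fell. Above 0 lay 10 of the 11, with a median of 0.90, against 43.9% of all genes, with a median of -0.03. This list too was chosen with earlier results of these data known. Il17rd, whose product Sef is a membrane inhibitor of FGF signalling, rose by 1.05 ± 0.15 (adjusted p = 0.0414), and Dusp1, an immediate early phosphatase that prefers p38 and JNK, by 0.87 ± 0.13 (adjusted p = 0.0441). Dusp16 measured 0.90 ± 0.16, Dusp7 0.94 ± 0.17, Dusp10 0.93 ± 0.18 and Dusp5, the nuclear ERK phosphatase, 0.90 ± 0.20, with adjusted p from 0.0603 to 0.0885. Dusp9, named after its value was seen, was the one below 0 (-0.32 ± 0.36). Spred3 and Spry3 were also named after their values were seen. Spred3 had the most positive difference of the list, 1.10 ± 0.39 (adjusted p = 0.203), reading 7.70 and 6.57 in proline, while Spred1 and Spred2 measured below 0. Spry3, among those above 0, lay under the 40th percentile in every replicate. Etv1 was not analysed here.

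Among 13 FGF ligands and receptors, 2 rose, 2 fell and 9 did not pass, where 3.03% of all genes rose and 1.34% fell. Fgf4 fell by 1.13 ± 0.14 on the log2 scale (adjusted p = 0.0361), reading 10.96 and 11.20 in control and 10.01 and 9.89 in proline, and Fgf18 fell by 2.57 ± 0.30 (adjusted p = 0.0337). In proline Fgf18 read 6.17 and 5.31, and the value of replicate 2 was under the 40th percentile. Fgf5 rose from under the 40th percentile to 9.34 and 9.48 (adjusted p = 0.0246), and Fgf8 likewise to 8.30 and 9.78 (adjusted p = 0.0323). Fgfr1, the main FGF receptor of these cells, measured 0.62 ± 0.15 (adjusted p = 0.105), Fgf1 -0.39 ± 0.11, Klb -0.27 ± 0.12 and Fgf17 -0.38 ± 0.35. Klb lay under the 40th percentile in every replicate and Fgf1 in both proline replicates, where signal and background are not separated.

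Of the Ras to ERK cascade, 16 of 23 listed genes were measured, and 1 rose, 1 fell and 14 did not pass. Over all genes 3.03% rose and 1.34% fell, and counts this small are not read as a result about the cascade. Sos2, a Ras activator, read 5.99 and 6.12 in control and 7.51 and 7.51 in proline, a rise of 1.46 ± 0.12 (adjusted p = 0.0246). Gab1, an adaptor below receptors, fell by 0.78 ± 0.12 (adjusted p = 0.0445). Ksr1 measured -0.48 ± 0.13, Ptpn11 0.61 ± 0.17, Rps6ka3 0.49 ± 0.14 and Braf 0.45 ± 0.15, with adjusted p of 0.129 to 0.195. Their remaining probe sets did not all follow. Those of Ptpn11 measured -0.07 and -0.08, of Ksr1 -0.52 and 0.06, of Rps6ka3 0.08 and 0.58, and of Braf from -0.01 to 0.63. The other 7 listed genes were not analysed here.

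Of 12 other genes that ERK is known to act on, 1 rose, 0 fell and 11 did not pass, where 4.36% of all genes passed. With so few genes that count is not read as a result about the list. Junb rose by 0.80 ± 0.11 (adjusted p = 0.0413). Egr1 read 9.75 and 9.81 in control and 11.47 and 10.18 in proline, and Fos 7.84, 7.07, 9.64 and 8.02 in the same order, so that proline replicate 1 was well above proline replicate 2 in both (adjusted p = 0.266 and 0.283). Cic, the gene of Capicua, measured -0.37 ± 0.12 (adjusted p = 0.184) and Ccnd1 -0.50 ± 0.20 (adjusted p = 0.254). With any 1 biological replicate left out, 0 of the 9 calls in these 4 lists remained in limma, with 17 to 22 of the 52 genes at an unadjusted p under 0.05.

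**Figure D4:**
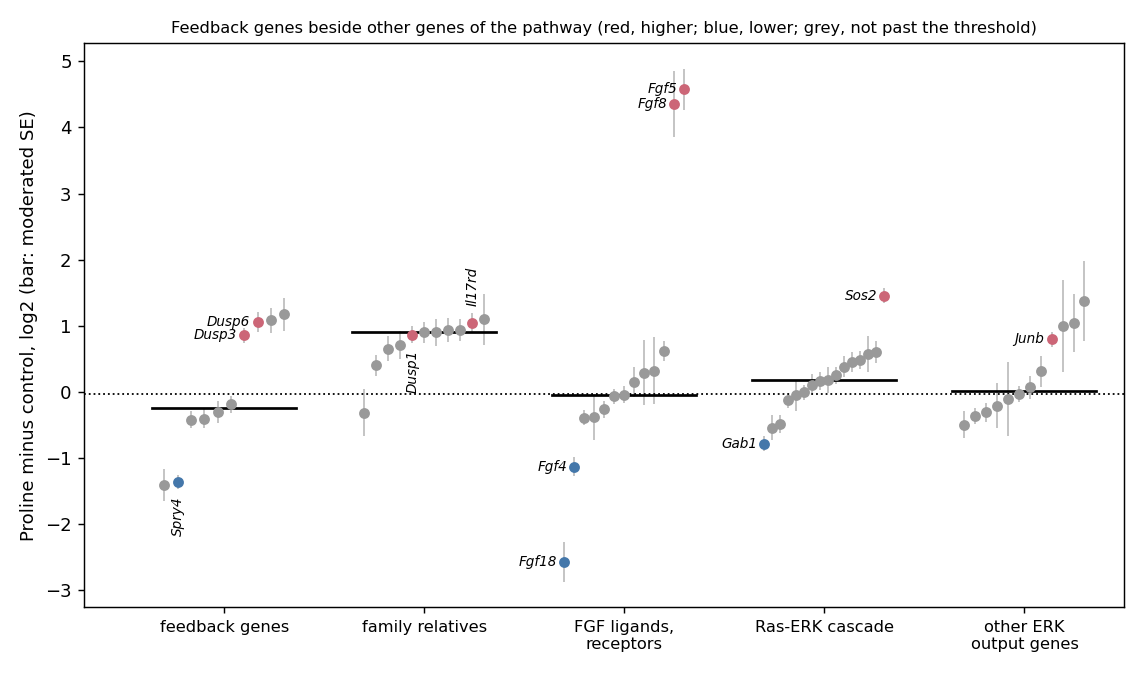
Proline minus control difference (log2) of every measured gene of the feedback genes and 4 lists of related genes, with limma's moderated standard error; coloured points passed an adjusted p of 0.05, black lines are list medians and the dotted line is the median of all genes. The median of the family relatives is 0.90, and the feedback genes lie on both sides of 0.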

How the data were processed

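Expression was measured on 12 Affymetrix arrays. The deposited table holds log2 signals, already normalized across arrays by the authors, with array medians of 5.99 to 6.03. Both MAS5 and RMA are named in the submitters' processing notes, without versions, and which of them gave the table is not stated. Its values, 2.10 to 14.8 with near-equal medians, are of the kind RMA gives. Detection calls were not used here.

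Names came from the platform annotation, where 34945 probe sets had exactly 1 symbol. The test was limma's moderated test (version 3.58.1, R 4.3.3; lmFit, eBayes, two-sided, no covariate) on 2 control and 2 proline values, each the mean of 3 arrays. P-values were adjusted over 18193 genes by Benjamini-Hochberg, with a threshold of 0.05. The letters a to c in the titles, not explained there, were taken as repeats. Residual degrees of freedom were 2 and prior ones 2.60. With 2 values against 2, the smallest two-sided p of an exact permutation test is 0.333. The number of replicates limits the precision. Plots were drawn with matplotlib 3.10.9.

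Named genes are the members and, from each list, all genes past the threshold and the 4 others with the smallest p, with Fgf4, Fgf5, Fgf8 and Fgfr1 always named. Dusp9, Spred3 and Spry3 were added after their values were seen. The 3 genes most like the members with the most positive and most negative difference were taken by Pearson correlation. Members and lists were chosen with earlier results of these data known.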

Additional observations from a re-analysis of the deposited data

How the results depend on the processing

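All 10 feedback genes kept the sign of their difference under all 12 alternatives, which was largely fixed in advance. The signal filter, single probe set test, random and replicate blocks and intensity trend change the test and not the difference itself. In each gene all 4 pairs of replicates had one sign, so leaving out 1 replicate could not reverse it. Of 18193 genes, 794 passed the threshold in the reported fit, with 3 of the 10 feedback genes, 0 of their 30 probe sets and 9 of the 52 listed pathway genes. With the median over probe sets these counts were 354 genes, 0 feedback genes and 5 pathway genes, and with every probe set tested by itself 45 probe sets, 0 feedback genes and 0 pathway genes. Leaving out genes under the 40th percentile gave 910 genes, of the fewer then tested, and 5 feedback genes, Dusp4 and Etv4 with the 3. An intensity trend gave 937 genes and 3 feedback genes, with Etv4 in and Dusp3 out, and 2 of the feedback genes' probe sets. The 12 arrays with a random block gave 3987 genes (21.9% of those tested), 6 feedback genes, 11 of their probe sets and 24 pathway genes. Leaving out 1 biological replicate left 0 of all genes, feedback genes, their probe sets and pathway genes, whichever it was; 2766 to 3676 genes had an unadjusted p under 0.05, and a lone sample is then assumed to vary like the other group.

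With the replicate number as a block, 2039 genes, 6 feedback genes, 10 of their probe sets and 15 pathway genes passed. The labels do not say that a number marks a shared culture or day, and the step from replicate 1 to 2 in controls correlated with that in proline at r = 0.338 across genes, so the pairing is not established. Quantile normalization and median centring gave 748 and 775 genes and left the count of feedback genes at 3. Signals under the 40th percentile are not separated from background.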
